A study of Mus musculus with 25 samples.

Results

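Antigen presentation by major histocompatibility complex (MHC) class I molecules was followed through 6 genes in dorsal root ganglia, the clusters of sensory neurons beside the spinal cord, of 25 BXD mouse strains. The genes were the heavy chains H2-K1 and H2-D1, the non-classical heavy chain H2-T23, the shared light chain B2m, the peptide transporter subunit Tap1 and the immunoproteasome subunit Psmb8. They were found by symbol among the 16220 genes of the deposited table, and all 6 were present and passed the minimum mean of 10 used for tests. B2m (ENSMUSG00000060802) is a protein-coding gene on chromosome 2. The other 5 are protein-coding genes on chromosome 17: H2-K1 (ENSMUSG00000061232), H2-D1 (ENSMUSG00000073411), H2-T23 (ENSMUSG00000067212), Tap1 (ENSMUSG00000037321) and Psmb8 (ENSMUSG00000024338). BXD strains are recombinant inbred lines that descend from C57BL6/J and DBA2/J mice. Per the labels, all mice were 8 weeks old, Trizol served to isolate ganglion RNA, and libraries came from TruSeq RNA v2, a kit that does not record the strand. The strain names end in RwwJ in 9 strains and in TyJ in 16, and this ending was the one labelled difference besides the strain. No treatment, transgene or deletion is named for any strain.

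A class I molecule is a heavy chain held at the cell surface by beta-2 microglobulin, the product of B2m. Proteasomes cut cytosolic proteins into peptides, the TAP1 and TAP2 transporter carries the peptides into the endoplasmic reticulum, and filled class I molecules show them to CD8 T cells and natural killer cells. Interferons raise many genes of the pathway together, and they exchange standard proteasome subunits for immunoproteasome subunits such as PSMB8. Neurons are known for low class I levels, so in a ganglion much of the class I RNA can come from glia, vessels and immune cells. In bulk tissue, fewer cells of a type and less RNA per cell cannot be told apart.

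The promoters of H2-K1, H2-D1 and B2m are shown because the first pair proved nearly alike in the bases that aligned. All of them also hold the motifs that interferon and NF-kappa B pathways are known to use in class I genes. Each is the 250 bases before the transcription start in RefSeq on build GRCm38.p6, at chr17:34000348-34000597 on the minus strand for H2-K1, chr17:35262844-35263093 on the plus strand for H2-D1 and chr2:122147437-122147686 on the plus strand for B2m. Capitals mark matches, on either strand, to the core GAANNGAAA or the longer consensus of the interferon-stimulated response element, and to the kappa B consensus.
H2-K1: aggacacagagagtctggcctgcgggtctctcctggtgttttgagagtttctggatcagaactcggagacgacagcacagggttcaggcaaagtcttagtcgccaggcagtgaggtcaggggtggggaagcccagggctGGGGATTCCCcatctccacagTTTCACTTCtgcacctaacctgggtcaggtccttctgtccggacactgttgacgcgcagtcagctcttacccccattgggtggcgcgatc
H2-D1: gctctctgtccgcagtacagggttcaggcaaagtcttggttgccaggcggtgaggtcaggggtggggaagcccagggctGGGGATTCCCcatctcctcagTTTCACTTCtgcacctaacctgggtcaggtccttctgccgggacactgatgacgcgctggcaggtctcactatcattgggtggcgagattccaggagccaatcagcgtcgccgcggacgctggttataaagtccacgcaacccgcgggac
B2m: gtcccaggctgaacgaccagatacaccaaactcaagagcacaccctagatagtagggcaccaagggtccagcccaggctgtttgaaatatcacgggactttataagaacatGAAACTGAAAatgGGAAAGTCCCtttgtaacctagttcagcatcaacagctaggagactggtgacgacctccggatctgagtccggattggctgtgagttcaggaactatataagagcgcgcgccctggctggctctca
H2-K1 and H2-D1 matched at 170 of 190 aligned bases (89.5%), whereas H2-K1 and B2m matched at 55.1%. H2-K1 had 2 windows in RefSeq, and only the first listed was used. The kappa B match began 111 bases before the start in H2-K1 and 171 in H2-D1, so the windows were offset. Both heavy chain promoters held the kappa B match GGGGATTCCC and, on the opposite strand, GAANNGAAA. B2m held the longer interferon consensus as GAAACTGAAA and a kappa B match on the opposite strand. Among the promoters of 27025 genes, 6.34% held GAANNGAAA, 3.04% the longer interferon consensus and 4.0% the kappa B consensus. The H2-T23 window had a match to the longer interferon consensus, and the windows of Tap1 and Psmb8 had no match to these 3 motifs. TGACG, the core of the element bound by CREB-type factors, occurred in H2-K1, H2-D1, B2m and Tap1, against 17.9% of all promoters. A match describes these letters in this reference sequence only.

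The values are scaled counts, read counts that the authors normalized and rounded to whole numbers. Their totals ran from 24637919 to 26860283 per library, and their upper quartile was identical in every library. Each strain had 1 library, so the spread between strains holds genotype, animal, dissection and library together, and p-values measure differences against that spread. Taking 1 scaled count as 1 read, counting error made up 0.206% of the variance of B2m between strains and at most 7.40%, for Tap1. The neuronal markers of the tissue were abundant throughout, with Tubb3 at 70436 to 109907 and Prph at 43576 to 78205 scaled counts. Markers of other cells were also present in the ganglia: the macrophage score, the mean log2 level of 10 marker genes, spanned 2.81-fold from BXD16 to BXD1, and the endothelial score of 8 genes spanned 2.36-fold. Other scores spanned far more: 236.8-fold for spinal cord, highest in BXD48, 109.2-fold for skeletal muscle and 20.9-fold for adipose tissue. The B cell score spanned 14.2-fold, the erythroid score 9.80-fold and the T and natural killer cell score 4.10-fold.

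Per kilobase of exon, the light chain was the most abundant of the 6 RNAs, with a mean of 7164 scaled counts for B2m. The classical heavy chains followed, with means per kilobase of 1815 for H2-D1 and 762 for H2-K1. H2-T23 (171.5) and Psmb8 (152.5) were close to each other per kilobase, and Tap1 was the lowest at 53.1. Exon length was the union of all annotated exons of a gene, with 860 bases for B2m, 3381 for Psmb8 and 5476 for Tap1. For a gene with several transcripts this union can exceed each of them, so the order depends on that definition. In mean scaled counts without division, Psmb8 (515.6) lay above H2-T23 (495.5). The order of mean levels per kilobase so defined was light chain, classical heavy chains, non-classical heavy chain with immunoproteasome subunit, and transporter.

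H2-K1 varied most among the 6 genes. H2-K1 presents peptides as one of the classical class I heavy chains, and its level spanned 4.24-fold, from 1002 scaled counts in BXD16 to 4252 in BXD14. The SD of its log2 level was 0.65, wider than that of 90.5% of the genes tested. In RwwJ strains its scaled counts were 1058 at the lowest, 2464 at the median and 3926 at the highest. In TyJ strains they were 1002 at the lowest, 2030 at the median and 4252 at the highest, so the groups overlapped over almost their whole range.

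H2-D1, the other classical heavy chain, spanned 2.17-fold, from 3169 in BXD16 to 6883 in BXD14, the same strains that held the extremes of H2-K1. Its lowest, median and highest scaled counts were 3185, 4320 and 6274 in RwwJ strains and 3169, 4498 and 6883 in TyJ strains. The SD of its log2 level was 0.35, and of the 6 genes Tap1 alone varied less, with an SD of 0.31. H2-T23 encodes Qa-1, a heavy chain that presents leader peptides of other class I chains to the CD94/NKG2A receptor of natural killer cells. It spanned 3.40-fold, from 284 in BXD36 to 966 in BXD55. Its scaled counts were 289, 405 and 966 (lowest, median and highest) in RwwJ strains and 284, 466.5 and 839 in TyJ strains. BXD55 and BXD15, at 966 and 839, lay above every other strain, the next being BXD14 at 705.

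B2m spanned 2.83-fold, from 3321 in BXD16 to 9385 in BXD40. Its lowest, median and highest scaled counts were 4175, 5930 and 8317 in RwwJ strains and 3321, 6106 and 9385 in TyJ strains. Psmb8, which replaces a catalytic beta subunit of the standard proteasome, spanned 2.92-fold, from 287 in BXD60 to 838 in BXD40. It stood at 287, 447 and 631 in RwwJ strains and at 372, 539 and 838 in TyJ strains. BXD40, BXD21 and BXD1 held the 3 highest Psmb8 levels at 838, 774 and 755, and BXD40 and BXD1 also held the 2 highest B2m levels at 9385 and 8964.

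Tap1, a subunit of the peptide transporter, spanned 2.31-fold, from 195 in BXD5 to 450 in BXD21. Its scaled counts were 211, 252 and 346 (lowest, median and highest) in RwwJ strains and 195, 275 and 450 in TyJ strains. The plot of scaled counts by strain shows that for each of the 6 genes the ranges of the strain groups overlapped. Because each strain had 1 library, neighbours in the order of levels have no measured spread of their own.

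**Figure D1:**
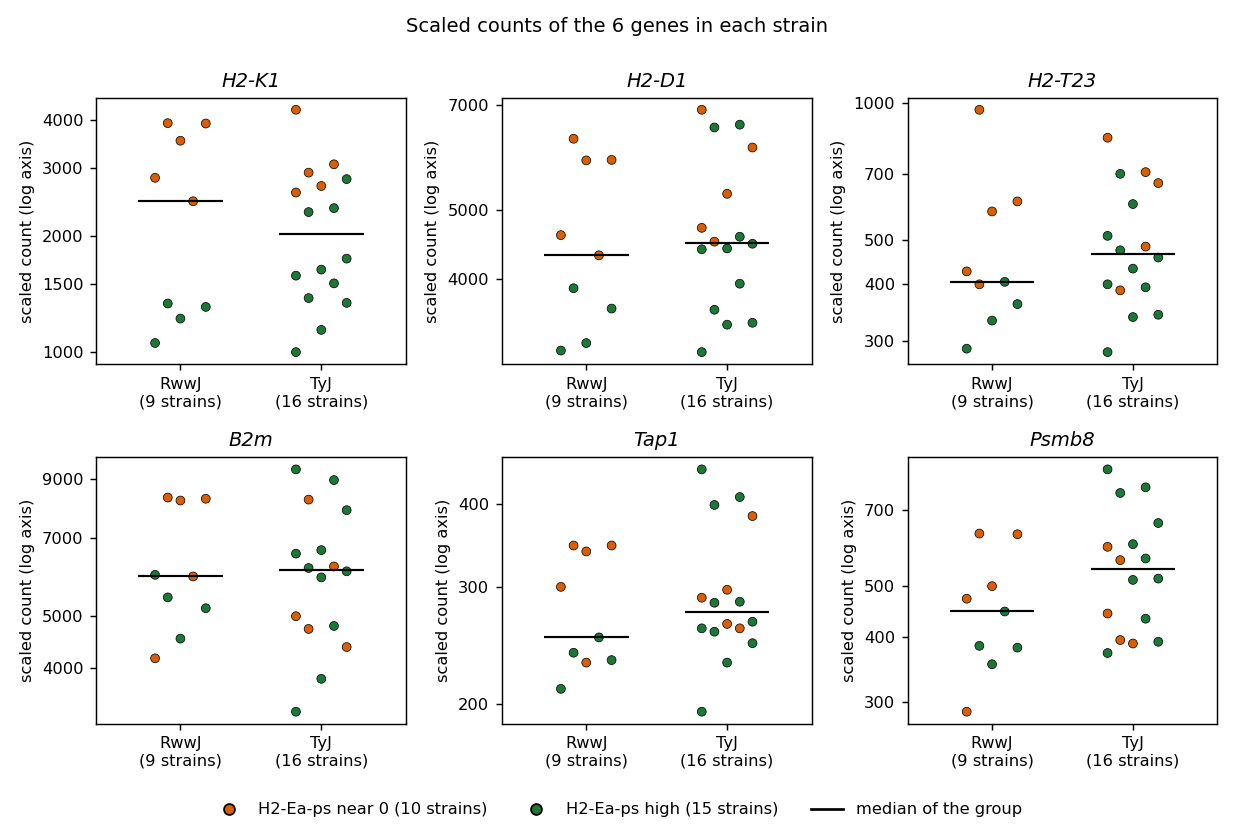
Scaled counts of the 6 genes in each strain (points, log axis), RwwJ at the left and TyJ at the right of each panel, with the group median as a bar and the level of H2-Ea-ps as colour. The groups overlap in every panel, and H2-K1 is the gene whose points separate most by H2-Ea-ps colour.

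Separate levels were described by the gap at the best split of the 25 ordered log2 values, with at least 5 strains on each side, and a gene was said to lie at 2 levels where the gap was at least 1 pooled SD within the sides. By this rule 9.6% of the 16152 genes tested lay at 2 levels, as did 11.7% of the 94 genes from H2-K1 to H2-T23 on chromosome 17, and 2 of the 6 class I genes did, H2-K1 and Tap1. The lower side of H2-K1 held 12 strains with 1002 to 1750 scaled counts and the upper side 13 strains with 2310 to 4252, a gap of 0.40 on the log2 scale or 1.47 pooled SD. The lower side of Tap1 held 18 strains with 195 to 300 and the upper side 7 strains with 339 to 450, a gap of 0.18 or 1.07 pooled SD. The same 7 strains had more B2m, at 7879 (BXD21) to 9385 (BXD40), than any strain of the lower side, where BXD5 was highest at 6639. Divided by B2m of the same library, Tap1 had a gap of 0.46 pooled SD and did not lie at 2 levels. At a gap of at least 2 pooled SD, which 1.62% of genes reached, neither was at 2 levels. The gap was 0.86 pooled SD for H2-D1, 0.72 for H2-T23, 0.53 for B2m and 0.37 for Psmb8. Single libraries moved these gaps. H2-D1 reached 1.73 without BXD42 and 1.07 without BXD2, H2-T23 reached 1.07 without BXD40 and was 0.32 without BXD15, and with each strain left out B2m ran from 0.34 to 0.82 and Psmb8 from 0.19 to 0.77. Without BXD1, BXD21 and BXD40, a set chosen after the values were seen, Tap1 stood at 0.66 and H2-T23 at 1.03, so the members at 2 levels were then H2-K1 and H2-T23. The count has no test.

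The sides of H2-K1 followed the level of H2-Ea-ps, a class II alpha chain gene of the same region of chromosome 17. As background, the C57BL/6 allele of this gene is known not to be transcribed, while DBA/2 mice express it. Its scaled count was at most 4 in 10 strains and at least 700 in the other 15, up to 3771. The near-0 strains were BXD48, BXD55, BXD60, BXD77 and BXD89 of RwwJ and BXD2, BXD13, BXD14, BXD15 and BXD42 of TyJ. No strain was assigned a parental genotype here, and these sides were chosen after the values were seen, so what follows describes them with no test.

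H2-K1 ran from 2464 to 4252 scaled counts in the 10 strains with H2-Ea-ps near 0 and from 1002 to 2812 in the 15 with H2-Ea-ps high. All 10 near-0 strains lay on the upper side of H2-K1, together with BXD1 (2310), BXD21 (2365) and BXD40 (2812) among the strains with H2-Ea-ps high. The next strain below was BXD11 at 1750. These 3 strains were also among the 7 highest for B2m, at 8964 in BXD1, 7879 in BXD21 and 9385 in BXD40.

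Divided by B2m of the same library, a ratio that library scaling cannot move and that was chosen after the values were seen, H2-K1 no longer overlapped between the sides. The ratio of H2-K1 to B2m was 0.427 to 0.649 in the 10 strains with H2-Ea-ps near 0 and 0.220 to 0.362 in the 15 with H2-Ea-ps high. BXD1, BXD21 and BXD40 had ratios of 0.258, 0.3002 and 0.2996, inside the range of the other strains with H2-Ea-ps high. Of 16151 genes, 11 (0.0681%) had ratios to B2m that did not overlap between these sides, and 9 of the 11 were on chromosome 17. Among the 94 genes tested from H2-K1 to H2-T23 on that chromosome, the share was 6.38%. By the rule for 2 levels, H2-K1 alone of the 5 ratios to B2m lay at 2 levels, against 6.51% of all genes, and its split was the split by H2-Ea-ps.

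**Figure D2:**
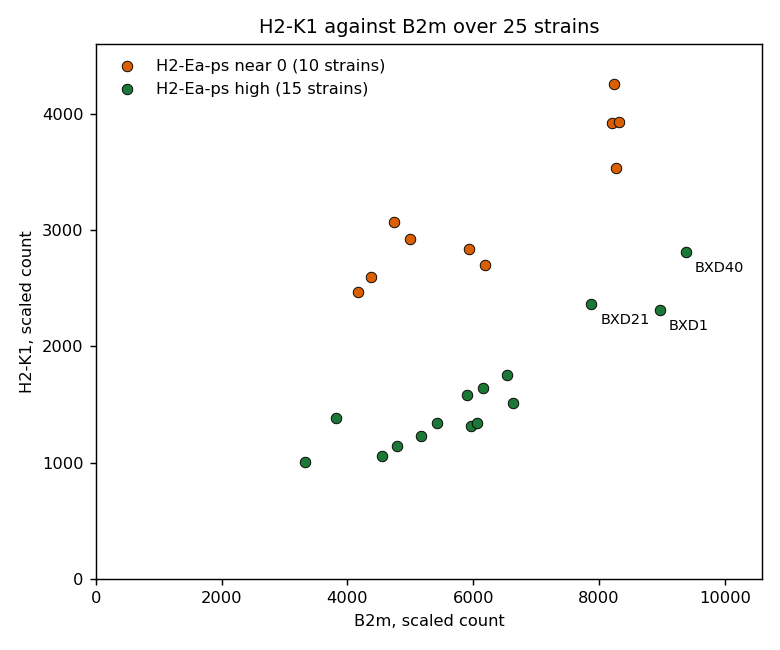
H2-K1 against B2m in scaled counts, with 1 point per strain and colour for the level of H2-Ea-ps. The strains with H2-Ea-ps near 0 lie above those with H2-Ea-ps high at a like level of B2m, and BXD1, BXD21 and BXD40 lie at the right end of the lower band.

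The separation depended on the gene in the denominator. H2-K1 divided by Psmb8 was 5.21 to 8.59 in strains with H2-Ea-ps near 0 and 2.38 to 3.54 in strains with H2-Ea-ps high. H2-K1 divided by Tap1 was 9.09 to 11.4 with H2-Ea-ps near 0 and 4.34 to 7.74 with H2-Ea-ps high, again without overlap. Against the other heavy chains the ranges met, with H2-K1 over H2-D1 at 0.479 to 0.670 with H2-Ea-ps near 0 and 0.290 to 0.504 with H2-Ea-ps high. H2-K1 over H2-T23 was 3.48 to 6.79 with H2-Ea-ps near 0 and 2.64 to 5.77 with H2-Ea-ps high.

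The other 5 genes overlapped between the same sides. H2-D1 was 4320 to 6883 scaled counts in strains with H2-Ea-ps near 0 and 3169 to 6563 in strains with H2-Ea-ps high, and H2-T23 was 388 to 966 with H2-Ea-ps near 0 and 284 to 699 with H2-Ea-ps high. B2m, on chromosome 2, was 4175 to 8317 with H2-Ea-ps near 0 and 3321 to 9385 with H2-Ea-ps high. Tap1 was 231 to 383 with H2-Ea-ps near 0 and 195 to 450 with H2-Ea-ps high, so its sides did not follow H2-Ea-ps although it lies on chromosome 17. Its upper side held BXD14, BXD55, BXD77 and BXD89 with H2-Ea-ps near 0 and BXD1, BXD21 and BXD40 with H2-Ea-ps high. Psmb8 was 287 to 631 with H2-Ea-ps near 0 and 354 to 838 with H2-Ea-ps high. Divided by B2m, H2-D1, H2-T23, Tap1 and Psmb8 overlapped as well, as the plot of ratios shows.

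**Figure D3:**
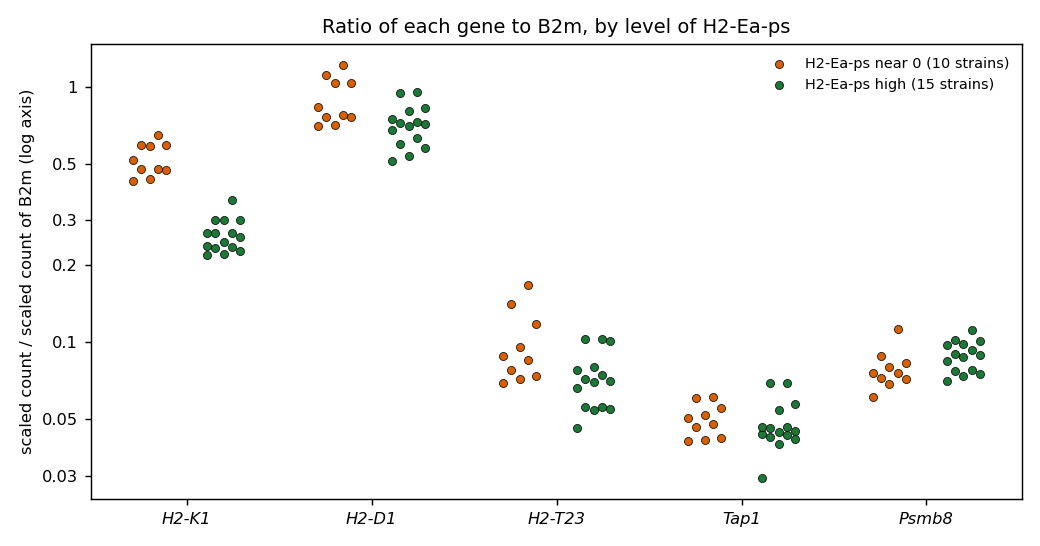
Scaled count of each gene divided by that of B2m in the same library (log axis), 1 point per strain, with strains of H2-Ea-ps near 0 left of those with H2-Ea-ps high. H2-K1 is the gene with no overlap, at 0.427 to 0.649 against 0.220 to 0.362.

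In scaled counts, 11 of 16152 genes (0.0681%) did not overlap between the H2-Ea-ps sides, H2-Ea-ps itself included, and 3 of them were other class I heavy chains. None of the 6 members was among them, and of the 94 genes from H2-K1 to H2-T23 the share was 3.19%. H2-T22, whose product is known as a ligand of gamma delta T cells, was 447 to 615 in strains with H2-Ea-ps near 0 and 161 to 338 in strains with H2-Ea-ps high. Its close relative H2-T10 ran the other way, at 12 to 25 with H2-Ea-ps near 0 and 67 to 157 with H2-Ea-ps high. H2-Q2 was 1 to 18 with H2-Ea-ps near 0 and 38 to 95 with H2-Ea-ps high. Class I heavy chains of the same chromosome region were thus on opposite sides of H2-Ea-ps.

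Class I genes are among the most polymorphic of the mouse and resemble each other, and the mouse reference genome is that of C57BL/6J. A read from another allele can fail to align or can align to a related gene. The part of read alignment in these levels was not tested, since alignments were not analysed here and the read length is not given in the sources used here. What could be measured was the share of each gene's reference transcripts that recurs in other genes. Of the distinct stretches of 50 bases in H2-K1 transcripts, 9.63% also occurred in transcripts of other genes, H2-Q10 (5.18%) and H2-D1 (4.08%) before all, and for stretches of 100 bases the share was 0.957%. The shares for stretches of 50 and 100 bases were 12.8% and 3.59% for H2-D1 and 14.5% and 3.15% for H2-T23.

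No stretch of B2m was shared at either length. H2-T22 and H2-T10 were far less distinct, with 53.5% and 50.4% of stretches of 50 bases shared, most often with each other. At 100 bases the shares were 31.5% and 28.1%, most often with A930015D03Rik for H2-T22 and with BC023719 for H2-T10, so their split of reads is uncertain. For Psmb8, 11.9% of stretches of 50 bases were shared, nearly all with Gm20496, an overlapping gene model, and for Tap1 3.33%, mainly with its neighbour Psmb9. Because the kit does not record the strand, reads of H2-T23 and A930015D03Rik, of B2m and Patl2, of Tap1 and Psmb9, and of Psmb8 and Gm20496 cannot be told apart where these genes overlap.

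Over the 25 strains, r was positive for all 6 pairs of the members that did not lie at 2 levels. Pearson's r of log2 levels was tested with 100000 permutations, so 1e-05 is the smallest p, and adjusted by Benjamini-Hochberg over the 6 pairs of H2-D1, H2-T23, B2m and Psmb8. B2m and Psmb8, which lie on different chromosomes, were closest, with r = 0.84 (adjusted permutation p = 6e-05) and Spearman's rho = 0.85 (adjusted permutation p = 6e-05). Psmb8 ranked 2 of 16151 genes by r with B2m, and B2m ranked 32 by r with Psmb8. The other pairs ranked lower among all genes. By r with H2-D1, H2-T23 ranked 22, B2m 127 and Psmb8 334. By r with H2-T23, H2-D1 ranked 143, B2m 1565 and Psmb8 2554. H2-D1 ranked 376 and H2-T23 1656 by r with B2m, and they ranked 1674 and 3760 by r with Psmb8. The median r over all genes was 0.02 for both members.

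H2-D1 and H2-T23 had r = 0.74 (adjusted permutation p = 1.8e-04) and rho = 0.77 (9e-05). The pooled r of a pair spans both H2-Ea-ps sides. Median scaled counts on these sides were 5557 (near 0) and 3888 (high) for H2-D1, and 593 and 400 for H2-T23. Within the sides some of the 6 pairs did not pass, as given below. H2-D1 and B2m, the 2 chains of one molecule, had r = 0.66 (adjusted permutation p = 7e-04) and rho = 0.62 (0.00192), and H2-D1 and Psmb8 had r = 0.60 (0.00228) and rho = 0.62 (0.00192). H2-T23 and B2m had r = 0.50 (adjusted permutation p = 0.0127) and rho = 0.54 (0.00716). For H2-T23 and Psmb8 r was 0.40 (adjusted permutation p = 0.0497) and rho 0.49 (0.0128). Without the 2 strains farthest from the median, the 6 values of r were 0.45 to 0.82. The order of the pairs moved with the strains used: without BXD21, BXD36 and BXD40, r was 0.88 for H2-T23 with H2-D1, 0.59 with B2m and 0.58 with Psmb8, and the lowest was 0.49, for H2-D1 with Psmb8.

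Regressed on the macrophage score, fewer of these pairs passed. On those residuals 2 of the 6 did, and r was -0.03 for H2-T23 with B2m and -0.19 for H2-T23 with Psmb8. On the residuals of the interferon score, 3 of 6 passed. The parts that macrophage content and interferon genes have in the co-variation were not tested beyond these residuals.

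For pairs with H2-K1 or Tap1, which lay at 2 levels, no r over all strains was tested, and the pairs were taken within the strains of each H2-Ea-ps side, a choice made after the values were seen. Of the 15 pairs, 12 passed an adjusted permutation p of 0.05 over 30 relations in the 10 strains with H2-Ea-ps near 0, and 13 passed in the 15 strains with H2-Ea-ps high. The share of all genes with a like r to a member within these sides is not given here. These counts therefore cannot be read as particular to the members. H2-K1 and H2-D1 had r = 0.89 (adjusted permutation p = 0.00335) and rho = 0.89 (0.003) with H2-Ea-ps near 0, and r = 0.91 (1e-04) and rho = 0.91 (1.5e-04) with H2-Ea-ps high. H2-K1 and B2m had r = 0.88 (adjusted permutation p = 0.00495) and rho = 0.82 (0.0110) with H2-Ea-ps near 0, and r = 0.89 (2.25e-04) and rho = 0.87 (9.75e-04) with H2-Ea-ps high. Within each side, strains with more B2m RNA therefore had more H2-K1 RNA.

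Tap1 and H2-K1 had r = 0.92 (adjusted permutation p = 8e-04) and rho = 0.86 (0.00508) with H2-Ea-ps near 0, and r = 0.86 (7.125e-04) and rho = 0.77 (0.00338) with H2-Ea-ps high. B2m and Tap1 had r = 0.94 (adjusted permutation p = 6e-04) and rho = 0.88 (0.00445) with H2-Ea-ps near 0, and r = 0.68 (0.0103) and rho = 0.57 (0.0358) with H2-Ea-ps high. Whether r differed between the sides was not tested. H2-T23 and Tap1 did not pass on either side, with r = 0.49 (adjusted permutation p = 0.147) and rho = 0.44 (0.223) with H2-Ea-ps near 0, and r = 0.43 (0.111) and rho = 0.28 (0.3085) with H2-Ea-ps high. The other relations that did not pass also held H2-T23. With B2m its r was 0.49 (adjusted permutation p = 0.147) and rho 0.43 (0.2265) with H2-Ea-ps near 0. With Psmb8 its r was 0.56 (adjusted permutation p = 0.101) and rho 0.54 (0.126) with H2-Ea-ps near 0. With H2-D1 its r was 0.52 (adjusted permutation p = 0.05625) and rho 0.64 (0.0205) with H2-Ea-ps high. Without the 2 strains farthest from the median, r was 0.86 with H2-Ea-ps near 0 and 0.83 with H2-Ea-ps high for H2-K1 and H2-D1, 0.84 and 0.84 for H2-K1 and B2m, 0.86 and 0.73 for H2-K1 and Tap1, and 0.91 and 0.61 for B2m and Tap1. These sides still hold both levels of Tap1. Within the levels of Tap1 itself, r with H2-K1 was -0.76 in the 7 strains of the upper level (adjusted permutation p = 0.135; rho = -0.56, unadjusted 0.206) and 0.56 in the 18 of the lower (0.0785; rho = 0.65, unadjusted 0.00412). Both levels of Tap1 mix the H2-Ea-ps sides. In the upper level, BXD1, BXD21 and BXD40 (high) had H2-K1 at 2310 to 2812 and Tap1 at 398 to 450. The 4 strains near 0 there had H2-K1 at 3536 to 4252 and Tap1 at 339 to 383. The part of the sides in this r was not tested. Within the 2 levels of H2-K1 and of Tap1 themselves, 3 of 20 relations passed, again without a share over all genes. All 3 were on the lower side of H2-K1, with H2-D1 (r = 0.81, adjusted permutation p = 0.0161; rho = 0.83, unadjusted 0.00159), B2m (r = 0.75, 0.0327; rho = 0.75, unadjusted 0.00675) and Psmb8 (r = 0.83, 0.0161; rho = 0.86, unadjusted 5.6e-04).

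**Figure D4:**
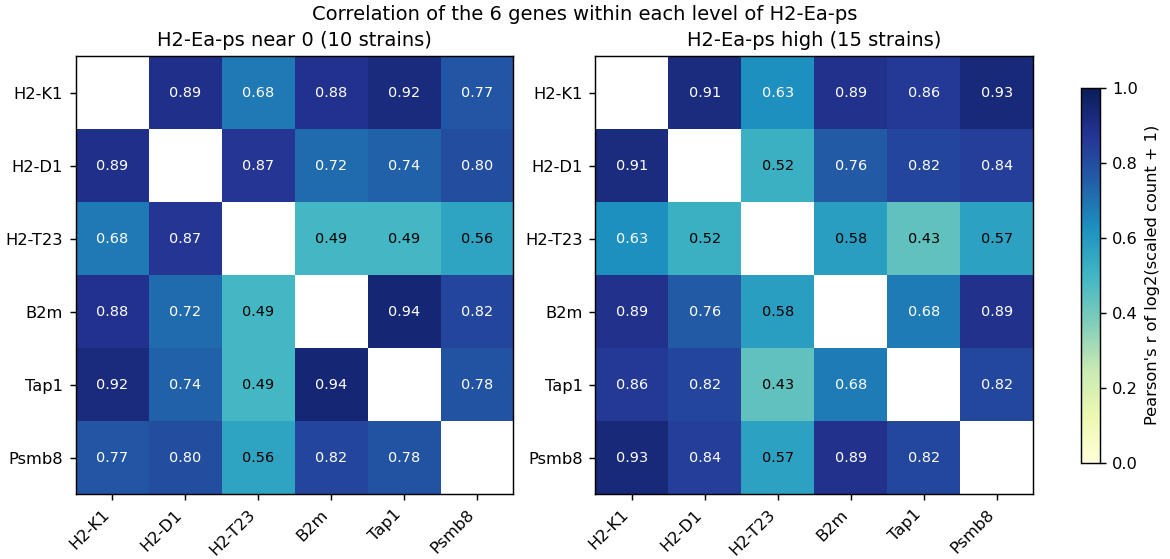
Pearson's r of log2 levels for each pair of the 6 genes within the 10 strains with H2-Ea-ps near 0 (left) and the 15 with H2-Ea-ps high (right), as colour and number. The row of H2-T23 is the palest in both panels, and H2-K1 with H2-D1 stands at 0.89 and 0.91.

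The genes whose levels were most like each member over the 25 strains, by Pearson's r of log2 levels, differed from member to member. For H2-K1 they were H2-T22 (r = 0.90), H2-D1 (0.90) and H2-DMb1 (0.89), a chain that aids class II peptide loading, and these values span both levels of H2-K1. For H2-D1 they were H2-K1 (0.90), the class II beta chain H2-Eb1 (0.81) and the myeloid lectin receptor Clec12a (0.81). For B2m they were the lysosomal protease Ctss (0.85), Psmb8 (0.84) and the Fc receptor Fcgr3 (0.83), and Ctss and Fcgr3 are known as genes of macrophages and related cells.

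H2-T23 was most like the ubiquitin ligase Trim47 (r = 0.87), the splicing factor Ptbp1 (0.86) and the leukocyte actin-binding protein Lsp1 (0.86). For Tap1 they were the histone mRNA-binding Slbp (0.81), the natural killer receptor Klrk1 (0.79), at only 4 to 43 scaled counts, and the ribosomal RNA processing factor Rrp36 (0.79), again over both levels of Tap1. For Psmb8 they were the lysosomal cholesterol carrier Npc2 (0.89), Mettl23 (0.88), a methyltransferase gene, and Sumo2 (0.88), which is conjugated to other proteins. None of these 9 genes was named for more than 1 of H2-T23, Tap1 and Psmb8.

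Several cell type scores correlated with the members. Over the 4 members not at 2 levels and 13 scores, 22 of 52 relations passed an adjusted permutation p of 0.05. The share of all genes that pass with these scores is not given here, so this count cannot be read as particular to the members. The macrophage score passed with all 4: with B2m r = 0.77 (adjusted permutation p = 3.467e-04) and rho = 0.74 (unadjusted 3e-05), with Psmb8 r = 0.73 (3.9e-04) and rho = 0.72 (8e-05). With H2-T23 it was r = 0.67 (adjusted permutation p = 0.00163) and rho = 0.69 (unadjusted 1.3e-04), and with H2-D1 r = 0.57 (0.0126) and rho = 0.57 (0.00345). Without the 2 strains farthest from the median, these 4 values of r were 0.53 to 0.69. Aif1 and Adgre1 of this score lie on chromosome 17, as do H2-D1, H2-T23 and Psmb8. The part of linkage in these values was not tested.

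The highest correlations of H2-T23 were with the endothelial and fibroblast scores. Its r was 0.78 with the endothelial score (adjusted permutation p = 3.467e-04; rho = 0.76, unadjusted 2e-05) and 0.75 with the fibroblast score (adjusted permutation p = 3.467e-04; rho = 0.66, unadjusted 3.6e-04). The fibroblast score passed with B2m at r = 0.49 (adjusted permutation p = 0.0313; rho = 0.48, unadjusted 0.0159) and with H2-D1 at r = 0.46 (0.0460; rho = 0.46, unadjusted 0.0219), the last missing the threshold at r = 0.33 without the 2 strains farthest from the median. The pan-neuronal score had negative r with all 4 members, and passed with H2-T23 at r = -0.52 (adjusted permutation p = 0.0247; rho = -0.52, unadjusted 0.00839). Without the 2 farthest strains that r was -0.44 and missed the threshold, beside -0.36 for Psmb8, -0.34 for B2m and -0.10 for H2-D1. Whether these values differ between the members was not tested.

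The score of 5 T and natural killer cell genes passed with all 4 members, at r = 0.71 for B2m (adjusted permutation p = 6.933e-04), 0.61 for H2-D1 (0.00605), 0.58 for Psmb8 (0.0108) and 0.54 for H2-T23 (0.0186), with rho of 0.56 to 0.66 (unadjusted permutation p = 3.9e-04 to 0.00422). Without the 2 strains farthest from the median, r was 0.43 for Psmb8 and missed the threshold. Its genes were near the floor, Cd3d at 2 to 48 and Cd8a at 5 to 23 scaled counts. The erythroid score, a measure of blood in the tissue, passed with B2m at r = 0.72 (adjusted permutation p = 4.16e-04; rho = 0.67, unadjusted 2.3e-04) and with Psmb8 at r = 0.62 (0.00452; rho = 0.66, unadjusted 4.9e-04). The satellite glia score passed with Psmb8 at r = 0.65 (adjusted permutation p = 0.00299; rho = 0.67, unadjusted 3.7e-04) and with B2m at r = 0.50 (0.0296; rho = 0.59, unadjusted 0.00243), although the r with B2m was 0.43 and missed the threshold without the 2 strains farthest from the median. BXD1 had the highest macrophage, T and natural killer cell, B cell, erythroid and interferon scores of all strains. The B cell score passed with H2-T23 at r = 0.51 (adjusted permutation p = 0.0265), with rho = 0.56. With H2-D1 it missed the threshold at r = 0.45 (adjusted permutation p = 0.05007), with rho = 0.63. The adipose score passed with none of the 4 members, at r = 0.35 for B2m and 0.40 for Psmb8, although rho was 0.59 and 0.58. The part of cell content in the members' levels was not tested further.

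The score of 36 interferon-induced genes, which spanned 2.14-fold from BXD68 to BXD1, passed with all 4 members too. Its r was 0.63 with Psmb8 (adjusted permutation p = 0.00439; rho = 0.63, unadjusted 1e-03), 0.56 with H2-T23 (0.0133; rho = 0.58, unadjusted 0.00251), 0.52 with H2-D1 (0.0247; rho = 0.53, unadjusted 0.00767) and 0.51 with B2m (0.0266; rho = 0.53, unadjusted 0.00784). Without the 2 strains farthest from the median it was 0.36 for B2m and 0.45 for H2-T23, and both missed the threshold. Within the H2-Ea-ps sides, 7 of 52 relations of H2-K1 and Tap1 passed, all with H2-Ea-ps high, again without a share over all genes. Besides the interferon score, H2-K1 passed with the T and natural killer cell (r = 0.76, adjusted permutation p = 0.0183), macrophage (0.75, 0.0183) and erythroid (0.74, 0.0183) scores. Tap1 passed with the T and natural killer cell (r = 0.77, adjusted permutation p = 0.0183) and erythroid (0.68, 0.03625) scores. For these relations rho was 0.67 to 0.77. Without the 2 strains farthest from the median score, r for H2-K1 was 0.50 (T and natural killer cell), 0.63 (macrophage) and 0.56 (erythroid). For Tap1 it was 0.55 (T and natural killer cell) and 0.44 (erythroid). With the interferon score it was 0.67 for H2-K1 and 0.76 for Tap1. The 15 strains with H2-Ea-ps high hold both levels of Tap1. The interferon score had r = 0.60 with Tap1 (adjusted permutation p = 0.176; rho = 0.52, unadjusted 0.129) in the 10 strains with H2-Ea-ps near 0 and r = 0.76 (0.0183; rho = 0.67, unadjusted 0.00864) in the 15 with H2-Ea-ps high. With H2-K1 it had r = 0.68 (adjusted permutation p = 0.133; rho = 0.67, unadjusted 0.0391) with H2-Ea-ps near 0 and r = 0.72 (0.0255; rho = 0.67, unadjusted 0.0077) with H2-Ea-ps high. The difference between the sides was not tested.

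No gene passed the test between RwwJ and TyJ strains. With limma on log2(scaled count + 1), 0 of 16152 genes (0%) passed an adjusted p of 0.05, 2440 (15.1%) had an unadjusted p under 0.05, and limma with array weights called 6. The comparison asks whether strains with different name endings differ, and none of the 6 class I genes passed. H2-K1 averaged 2401 ± 1205 scaled counts in RwwJ strains and 2149 ± 879 in TyJ strains (SD, n = 9 and 16), with a log2 difference, RwwJ minus TyJ, of 0.09 ± 0.26 (SE) and a limma adjusted p of 0.878. H2-D1 averaged 4544 ± 1185 in RwwJ and 4757 ± 1185 in TyJ, a difference of -0.07 ± 0.14 (limma adjusted p = 0.829), and H2-T23 averaged 485 ± 209 in RwwJ and 501 ± 158 in TyJ, a difference of -0.08 ± 0.19 (0.853).

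B2m averaged 6224 ± 1638 in RwwJ strains against 6126 ± 1787 in TyJ strains, a difference of 0.04 ± 0.16 (limma adjusted p = 0.920), and Tap1 averaged 277 ± 55.2 in RwwJ and 298 ± 71.9 in TyJ, a difference of -0.09 ± 0.13 (0.724). Psmb8 had the largest difference, with 454 ± 119 in RwwJ and 550 ± 148 in TyJ, at -0.27 ± 0.15 (limma adjusted p = 0.376). In exact two-sided permutation tests over all 2042975 splits of the strains, p was 0.0970 for Psmb8 and 0.479 to 0.827 for the other 5 genes. None of the 6 differences was larger than the spread between strains, which does not show that the groups are alike.

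Other genes of the pathway are given by list, with the share of unadjusted p under 0.05 over all genes tested at 6.19% for higher in RwwJ and 8.92% for lower. No gene of any list passed the limma adjusted p of 0.05. Of the 3 other immunoproteasome genes measured, all 3 had negative differences with an unadjusted p under 0.05, at -0.20 ± 0.09 for Psmb10, a catalytic subunit, -0.25 ± 0.11 for Psme2 and -0.23 ± 0.11 for Psme1, the 2 subunits of the PA28 activator (limma adjusted p = 0.314 to 0.327). Of the 14 constitutive core subunits, all 14 had negative differences and 11 an unadjusted p under 0.05, with a median of -0.22 beside -0.0047 over all genes. Psmb1, Psmb7 and Psmb4, the most abundant of them, were at -0.22 ± 0.09, -0.16 ± 0.06 and -0.21 ± 0.09.

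Proteasome levels were highest in particular TyJ strains. Of the 14 core genes, 7 were highest in BXD36 and 7 in BXD40, and BXD21 had the next highest score. Without BXD21, BXD36 and BXD40, the share of all genes with an unadjusted p under 0.05 was 2.88% for higher in RwwJ and 4.74% for lower, and the median over all genes was -0.0071. In that fit all 14 core differences were negative, 3 had an unadjusted p under 0.05 and their median was -0.11. The 3 immunoproteasome genes had a median there of -0.16 with none under 0.05, and Psmb8 was at -0.17 ± 0.14 (limma adjusted p = 0.739). Psmb9, a neighbour that overlaps Tap1, was on the immunoproteasome list but was not among the listed genes found by symbol.

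**Figure D5:**
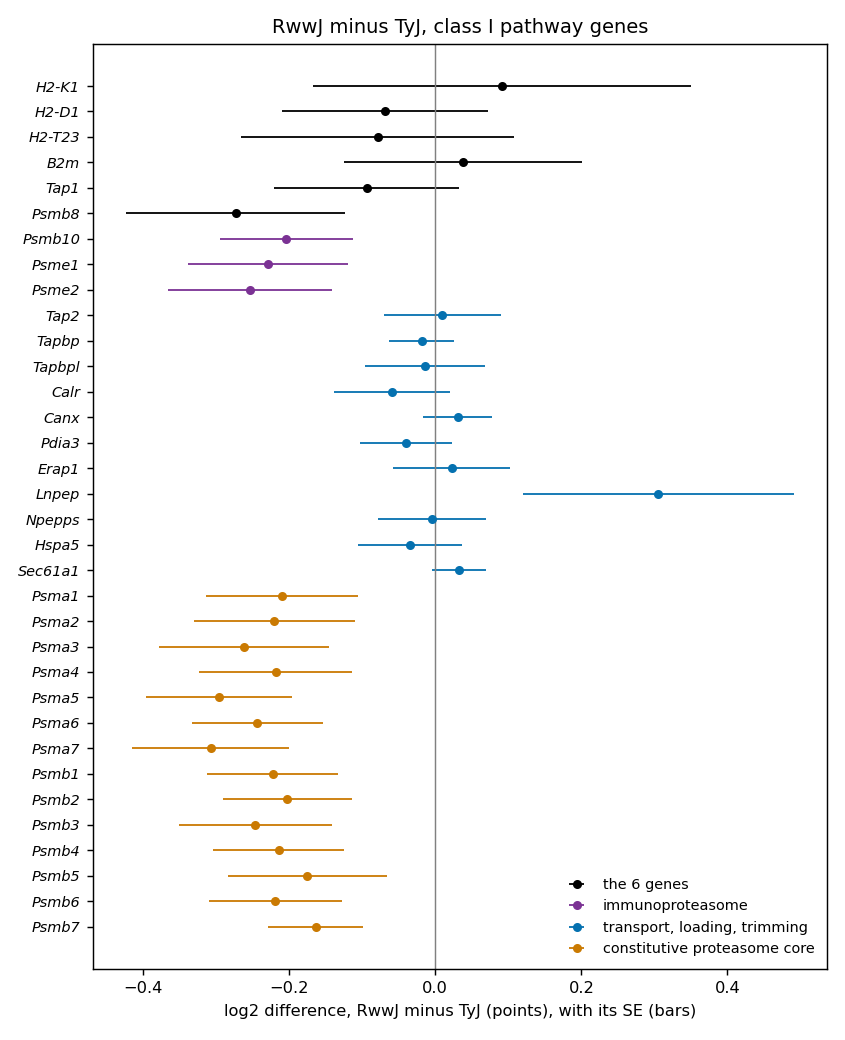
Log2 difference, RwwJ minus TyJ, of the 6 genes and 3 lists of the pathway (points) with its SE (bars), by limma over 25 strains. All 14 core proteasome subunits and the 3 other immunoproteasome genes lie left of 0, and no gene passed the adjusted threshold.

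The 11 genes of peptide transport, loading and trimming had none with an unadjusted p under 0.05, and 6 of them were negative, with a median difference of -0.0042. The chaperones Canx, Pdia3 and Calr, the most abundant of them, were at 0.03 ± 0.05, -0.04 ± 0.06 and -0.06 ± 0.08. Tap2, the partner of TAP1 in the transporter, ranged from 418 to 701 scaled counts over the strains. Tapbp, which bridges the transporter and empty class I molecules, ranged from 2339 to 3075.

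Of 15 other class I heavy chain genes and their relatives, 10 had negative differences and 1 an unadjusted p under 0.05. That gene was Hfe, a regulator of iron uptake, at -0.34 ± 0.12 (limma adjusted p = 0.290). The most abundant, the Fc receptor Fcgrt, was at -0.05 ± 0.13, and H2-T22 was at 0.15 ± 0.25. Of the 18 regulators, 14 were negative and 1 had an unadjusted p under 0.05, Irf9 at -0.17 ± 0.08 (limma adjusted p = 0.316), an interferon regulatory factor. Nlrc5, the transactivator of class I genes, was low, at 53 to 182 scaled counts, with a difference of -0.17 ± 0.16.

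Of the 36 interferon response genes, 33 had negative differences and 12 an unadjusted p under 0.05, all lower in RwwJ, with a median of -0.26. The most abundant, Ifi27, Lgals3bp and Samhd1, were at -0.18 ± 0.09, 0.01 ± 0.09 and 0.01 ± 0.08. Without BXD21, BXD36 and BXD40, 34 of 36 were negative and 8 had an unadjusted p under 0.05, all 8 lower in RwwJ, against 4.74% of all genes in that fit. The interferon score was highest in the TyJ strains BXD1 (8.62), BXD14 (8.535), BXD11 (8.44) and BXD21 (8.367). Of these strains that fit leaves out BXD21 alone, so it does not show how far the difference rests on the strains with the highest scores. The class II list of 11 genes had none with an unadjusted p under 0.05 and 7 negative differences, with the invariant chain Cd74 at 0.07 ± 0.24 and H2-Aa at -0.05 ± 0.26.

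Over strains, the lists lay at different distances from the members. The median r of the 3 immunoproteasome genes was 0.87 with Psmb8 and 0.70 with B2m, while the 14 core subunits had a median r of 0.57 with Psmb8 and 0.37 with B2m. The class II genes had a median r of 0.74 with H2-D1 and 0.74 with H2-T23, and 0.47 with B2m. The loading genes had a median r of 0.23 with B2m, beside 0.02 over all genes, and Tap2 stood at 0.78. These medians describe the lists over the same 25 libraries and have no test.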

How the data were processed

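RNA sequencing covered dorsal root ganglia of 25 BXD strains, with 1 library per strain. The deposited values are a normalized score: whole numbers that the authors made by scaling read counts to a common upper quartile and rounding, as the file's values show (scaled counts). The submitters' processing notes name the tools CASAVA 1.8.0, TopHat2 2.0.9 and HTSeq and the builds mm9 and NCBIM37. Not given in the sources used here are the roles of these tools, the scaling tool, the annotation, the read length, and the number and sex of the animals behind a library. Reads could not be recovered after rounding: 13 libraries left at least 3 of the whole numbers from 1 to 40 unused and 12 left none. No count model was fitted, and the depth in reads is unknown.

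Symbols, chromosomes, exon lengths, overlapping genes and transcript stretches came from GENCODE M21, whose build is later than that of the table, and 15697 of 16220 identifiers had an entry. Promoters came from RefSeq (GRCm38.p6), and all 6 genes matched.

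Levels were analysed as log2(scaled count + 1), which understates changes of low genes, over 16152 genes (mean of 10 or more). RwwJ (9 strains) and TyJ (16 strains) were compared by limma 3.58.1 (R 4.3.3; trended prior, two-sided) with Benjamini-Hochberg adjustment over all genes at 0.05, and the members also by exact permutation. Correlations used 100000 permutations (Python 3.11.15, NumPy 2.4.6, SciPy 1.17.1). The adjustment was planned over 15 pairs and made over 6, because the pairs of H2-K1 and Tap1 were not pooled. The split into 2 levels and the limma fit were tested on simulated data. A score is the mean log2 level of a list.

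The members, lists and tests were chosen with earlier results of these data known. The genes named are the 6 members, the 3 with a symbol of highest r with each, H2-Ea-ps, and genes of the lists, with examples of highest mean. Tap2, Tapbp, Psmb10, Psme1, Psme2, Hfe, Irf9 and Nlrc5 were named for their role or value after the values were seen, as were H2-T10 and H2-Q2. Alternatives were other pseudocounts, filters, scaling and limma settings, each strain left out, and strains left out in sets: BXD48 for its spinal cord score, and BXD21, BXD36 and BXD40 for scores that were highest in these strains in earlier results.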

Additional observations from a re-analysis of the deposited data

How the results depend on the processing

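No paired analysis was possible because each strain had 1 library and replicate numbers follow only the order of the samples. The count of genes past the limma adjusted threshold between RwwJ and TyJ, 0 as reported, was 6 with array weights, 3 without BXD48, 1 with H2-Ea-ps as a covariate (added after seeing the data) and 0 to 3 with each strain left out, with 1 each without BXD34, BXD40, BXD55, BXD60 or BXD87; none was a member. The H2-K1 difference reversed to -0.0485 with array weights and -0.17 with the H2-Ea-ps covariate, and the H2-D1 difference to 0.0045 without BXD21, BXD36 and BXD40. With each strain left out, the differences ran from -0.0192 to 0.22 for H2-K1, from -0.21 to 0.0026 for H2-T23 and from -0.0199 to 0.10 for B2m, while H2-D1, Tap1 and Psmb8 stayed negative. The 2 members at 2 levels became 1 after rescaling by median ratios, where the Tap1 gap was 0.96 pooled SD, 0 at a gap of at least 2 pooled SD, 1 as ratios to B2m, 2 to 3 with each strain left out, and 2, H2-K1 and H2-T23, without BXD1, BXD21 and BXD40. Of the 6 pooled pairs, 2 passed on macrophage residuals, where H2-T23 reversed to -0.0306 with B2m and -0.19 with Psmb8, 3 passed on interferon residuals, and 5 to 6 passed with each strain left out. H2-T23 with Psmb8 missed the threshold in 18 of those 25 fits. Within TyJ strains alone 4 of the 6 pairs passed, and H2-T23 missed with B2m (r = 0.37, adjusted permutation p = 0.193) and Psmb8 (0.27, 0.316). Within RwwJ strains alone 4 passed, and Psmb8 missed with H2-D1 (r = 0.66, adjusted permutation p = 0.0678) and H2-T23 (0.60, 0.0897). The cause was not tested. The gap in the H2-K1 ratio between the H2-Ea-ps sides, 0.24 on the log2 scale over B2m, was 0.56 over Psmb8, -0.0723 over H2-D1, -0.73 over H2-T23 and -0.19 with no ratio, where negative values mean overlap, and 0.24 to 0.50 with each strain left out, the highest without BXD28. Counting the alternatives above but not the strains left out 1 at a time, direction and side of the threshold were the same for 63 of 66 member differences, 35 of 41 gaps, 63 of 78 pair correlations and 81 of 88 score correlations. The pair correlations counted include the fits within TyJ, within RwwJ and within each H2-Ea-ps side. Depth in reads is unknown, so counting error rests on the scaled counts, and it weighs most on Tap1 and on the T and natural killer cell genes.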
